A study of Homo sapiens with 3 samples.

Results

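The genes described here are 10 genes of retinoid signalling: the retinoic acid receptors RARA, RARB and RARG, the retinoid X receptors RXRA and RXRB, PML, and the retinoid uptake and metabolism genes STRA6, DHRS3, DHRS9 and CYP26A1. They were chosen by symbol, with earlier results of these data known. All 10 of them had a row among the 57773 Ensembl gene IDs of the count table. Counts came from 3 libraries of polyadenylated RNA from NB4 cells grown in RPMI medium with 10% fetal bovine serum. NB4, an established human cell line, came from acute promyelocytic leukaemia with the fusion gene PML-RARA, so this background was present in all 3 libraries. The control library carried a non-target short hairpin RNA (shRNA), and the other 2 libraries each carried a different shRNA against ARID1B, called hairpins 2 and 3. ARID1B is a subunit of the BAF chromatin remodelling complex, and the series asks what its silencing does in this line. No retinoic acid treatment is named in the labels.

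Vitamin A (retinol) enters cells in part through STRA6, the receptor for plasma retinol binding protein. Short-chain dehydrogenases interconvert retinol and retinal, retinal is oxidised to retinoic acid, and CYP26 enzymes break retinoic acid down. Retinoic acid binds RAR proteins, which sit on DNA as heterodimers with RXR proteins. In acute promyelocytic leukaemia the fusion of PML, the organising protein of nuclear bodies, to RARA represses such targets, and pharmacological retinoic acid relieves the block and lets the cells mature.

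Retinoid receptors bind direct repeats of a short hexamer, and 2 of the 10 genes carried the classical spacing in a promoter window. Promoter sequences from RefSeq (build GRCh38.p14) were found for 9 of the 10 genes, in 26 windows, 1 for each listed start site. The 250 bases before each start were searched on both strands for 2 hexamers in the same orientation, 1, 2 or 5 bases apart, each hexamer being AGGTCA or else AGTTCA as well as GGGTCA and also GGTTCA. A repeat spaced by 5 bases was present in 2 of the 26 windows, 1 each of RARB and CYP26A1, against 0.074% of all 35116 windows. Both genes are known retinoic acid targets through this repeat, so their share is not independent evidence. No window of these genes held the repeat spaced by 1 or 2 bases, which 0.0968% and 0.0313% of all windows held. The 2 sites are shown with 6 flanking bases on the strand that reads as a direct repeat, with the hexamers in capitals. The RARB site is at chr3:25428204-25428232 on the plus strand, with 36 bases between the repeat and the start. The CYP26A1 site is at chr10:93073797-93073825 on the minus strand, with 73 bases between the repeat and the start.
RARB: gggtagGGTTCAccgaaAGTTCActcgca
CYP26A1: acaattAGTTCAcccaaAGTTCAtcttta
Between the 17-base repeats, 15 bases were identical. A match describes the letters only, and binding was not measured.

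The longer stretch around the RARB repeat, and the STRA6 window with most hexamers, show how the same letters can occur singly. The RARB window (chr3:25428013-25428262, plus strand) held a further hexamer upstream of the pair. The STRA6 window (chr15:74212260-74212509, minus strand) is shown because STRA6 had the largest change of the 10 genes, and its 3 hexamers lay in no repeat of the spacings searched. Capitals mark each hexamer on either strand.
RARB: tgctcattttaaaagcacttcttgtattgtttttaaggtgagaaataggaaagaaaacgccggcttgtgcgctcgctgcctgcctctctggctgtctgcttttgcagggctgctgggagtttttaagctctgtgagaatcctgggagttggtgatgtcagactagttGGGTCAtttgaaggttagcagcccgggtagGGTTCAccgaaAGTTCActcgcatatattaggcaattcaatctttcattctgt
STRA6: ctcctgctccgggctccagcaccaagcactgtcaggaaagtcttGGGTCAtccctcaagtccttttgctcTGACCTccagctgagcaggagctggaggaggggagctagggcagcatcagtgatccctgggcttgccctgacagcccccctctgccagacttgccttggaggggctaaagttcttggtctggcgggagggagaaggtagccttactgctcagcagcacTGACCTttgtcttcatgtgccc
At least 3 hexamers occurred in 1.36% of all windows and at least 1 in 33.8%. Of the 26 windows of these genes, 11 (42.3%) had at least 1. The 4 windows of DHRS9, the other gene that rose, held 1 hexamer in all. Which start sites NB4 cells use was not measured.

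The libraries held 59997475 to 62954803 counts. ARID1B (ENSG00000049618) had 5268 counts in the control and 2209 and 2234 under hairpins 2 and 3, so both hairpin libraries carried less of the targeted transcript. The log2 fold change of ARID1B was -1.23 ± 0.125 (SE; edgeR quasi-likelihood test, adjusted p = 1.43e-05). The promyelocyte markers MPO, AZU1, PRTN3, CTSG and CD33 were present at 1672 counts or more in each library, while ELANE had at most 10 counts and KIT at most 6. Of these 7 markers 6 were tested, and PRTN3 was called higher and CTSG lower, where 5.49% and 3.21% of all genes tested were. With 2 libraries against 1, only the difference between the hairpins gave a spread, with 1 residual degree of freedom for each gene. The fit shares this spread over all genes (median prior degrees of freedom 14.8). Most of the error in each test was thus borrowed from other genes. Nothing in the labels says whether the libraries came from separate cultures. The p-values thus cover just the variation among these 3 libraries, which may be technical.

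Of the 10 genes, 9 had enough counts to be tested. STRA6 and DHRS9 rose, none fell and 7 did not pass the threshold, a Benjamini-Hochberg adjusted p under 0.05 over all 20382 genes tested. Over all genes, 8.7% were called, 5.49% higher and 3.21% lower, and 4226 genes had an unadjusted p under 0.05. The median log2 fold change was 0.049 for the 9 genes and -0.012 for all genes tested. With so few genes, no share of the list can be set apart from that background. Relative to the control, 4 of the 10 genes were higher in both hairpin libraries, 4 were lower in both and RXRA and CYP26A1 were split. Of all genes tested, 77.8% lay on the same side of the shared control under both hairpins.

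**Figure D1:**
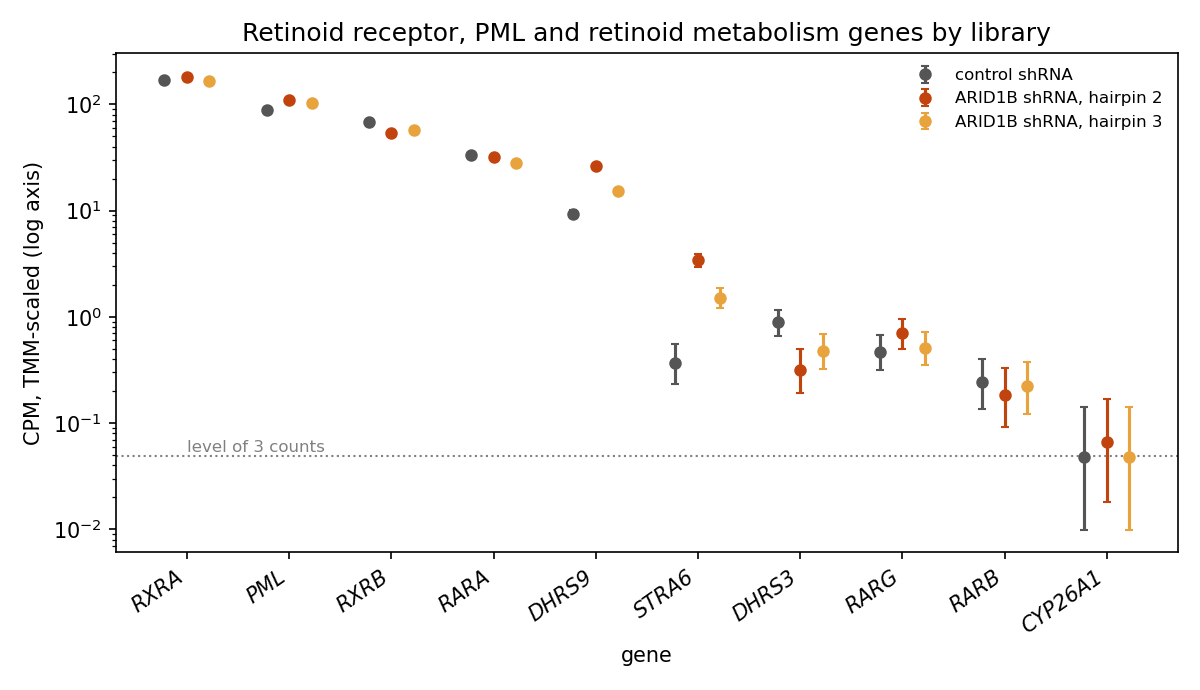
Level of each of the 10 genes in CPM (counts scaled to library size with TMM factors, log axis) in the control library and under ARID1B hairpins 2 and 3, with exact 95% Poisson intervals that cover counting error only. RXRA, PML, RXRB and RARA sit between 28.1 and 182 CPM in all libraries, DHRS9 and STRA6 are above the control under both hairpins, and CYP26A1 lies at the level of 3 counts (dotted line).

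Among the retinoic acid receptors, RARA was the only one at more than trace level, and its level was close to the control in both hairpin libraries. RARA (ENSG00000131759) had 2047 counts in the control, 1925 under hairpin 2 and 1754 under hairpin 3, or 33, 32 and 28.1 CPM. Hairpin 2 stood at 97.1% of the control (exact 95% counting interval of the ratio 0.912 to 1.03) and hairpin 3 at 85.3% (0.8 to 0.91), so only hairpin 3 was lower than the control beyond counting error. The fitted log2 fold change of RARA was -0.13 ± 0.141 (SE), with a 95% interval of -0.43 to 0.17, and did not pass in edgeR (adjusted p = 0.669). This interval does not reach a 2-fold change in either direction, as far as the spread between the hairpins, shared over all genes, stands for the error. RARA counts add up reads of the intact gene and of the fusion, which cannot be told apart in a gene-level table. An antisense gene, RARA-AS1, shares 11.8% of the RARA exon length but had 3 counts or fewer in each library.

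RARG, the receptor with a role in stem and progenitor cells and in skin, had 29 counts in the control, 42 under hairpin 2 and 32 under hairpin 3. RARB, itself a classical retinoic acid target through the repeat shown above, had 15, 11 and 14 counts. Neither passed in edgeR: the log2 fold change was 0.37 ± 0.45 for RARG (adjusted p = 0.717) and -0.24 ± 0.593 for RARB (adjusted p = 0.875). Their 95% intervals, -0.58 to 1.33 and -1.50 to 1.02, include 2-fold changes, so at this depth a moderate change of either gene was not detectable. Per length of exon, RARA, fusion reads included, made up 97.3 to 97.8% of the summed level of the 3 RAR genes in each library. RARG made up 1.28 to 1.96% and RARB 0.712 to 0.995%.

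The RXR genes, whose products pair with RAR and with several other nuclear receptors, were well expressed. RXRA (ENSG00000186350) had 10497 counts in the control, 10962 under hairpin 2 and 10442 under hairpin 3, which was 169, 182 and 167 CPM. Its hairpin libraries lay on either side of the control, and the log2 fold change was 0.049 ± 0.133 (95% interval -0.23 to 0.33; edgeR adjusted p = 0.888). RXRB (ENSG00000204231) had 4254 counts in the control and 3230 and 3578 under hairpins 2 and 3, or 68.5, 53.7 and 57.4 CPM. Both hairpin libraries were below the control beyond counting error, at 78.4% (ratio interval 0.749 to 0.821) and 83.8% (0.801 to 0.876). The fitted log2 fold change of RXRB was -0.30 ± 0.128 and did not pass over all genes (edgeR adjusted p = 0.183, and 0.107 to 0.498 among the alternatives). RXRB shares 6.22% of its exon length with SLC39A7 on the other strand, a gene with 4568, 5233 and 5670 counts. The third gene of the family, RXRG, had 0 counts throughout, and a count of 0 allows 3 counts, or 0.0483, 0.0499 and 0.0481 CPM.

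Per length, RXRA took 46.6% of the summed RXR level in the control and 54.6% and 50.8% under hairpins 2 and 3, with RXRB taking the rest. RXRB was thus the higher of the pair in the control and RXRA in both hairpin libraries, a difference that was not tested. With the longest annotated transcript as the length, a choice made after seeing the data, RXRA was the higher one in all 3 libraries (64.3 against 51.7 TPM, counts per exon length scaled to a fixed sum, in the control), so the order of the pair rests on the length used. The summed RXR level was 4.59 times the summed RAR level in the control, 4.34 times under hairpin 2 and 4.87 times under hairpin 3. The RAR sum includes fusion reads, which cover only the 3' part of RARA but were divided by its whole exon length. These ratios are thus not levels of intact receptors.

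PML (ENSG00000140464) was higher than the control under both hairpins by a small step that did not pass the test. It had 5489 counts in the control, 6606 under hairpin 2 and 6406 under hairpin 3, or 88.4, 110 and 103 CPM. The ratio to the control was 1.24 under hairpin 2 (counting interval 1.2 to 1.29) and 1.16 under hairpin 3 (1.12 to 1.21). The log2 fold change of PML was 0.27 ± 0.13, with a 95% interval of -0.01 to 0.54 (edgeR adjusted p = 0.264). Like RARA, PML counts hold fusion reads: the 5' part of PML and the 3' part of RARA make up the fusion transcript. Per length, PML and RARA were level in the control at 19.6 TPM. PML stood at 1.28 and 1.37 times RARA under hairpins 2 and 3, a difference that was not tested. In both hairpin libraries PML was above and RARA below the control, RARA beyond counting error under hairpin 3 only. The equality in the control rests on the length used. With the longest transcript PML was the higher one in each library (36 against 23.8 TPM in the control, 44.9 against 23.2 under hairpin 2 and 40.9 against 19.9 under hairpin 3).

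**Figure D2:**
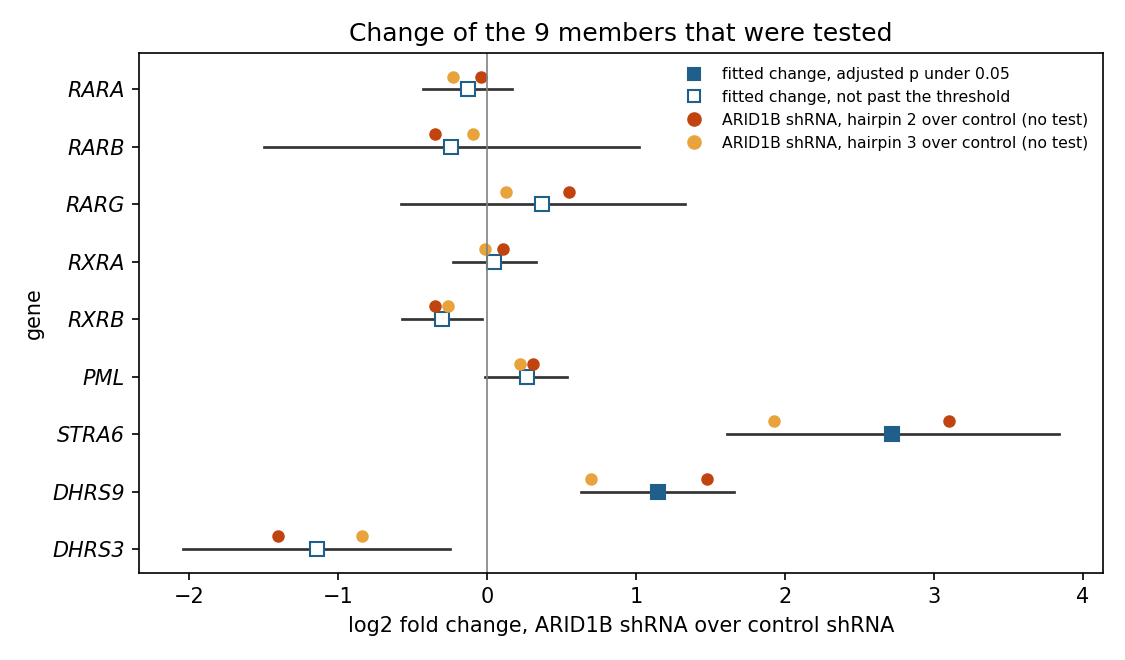
Fitted log2 fold change of the 9 genes tested, ARID1B shRNA over control shRNA (squares, with 95% intervals from the edgeR fit), and the log2 ratio of each hairpin library to the control (circles, log2 CPM with a prior count of 2, no test). STRA6 (2.72) and DHRS9 (1.15) are past the threshold, DHRS3 (-1.14) is not, and the receptors and PML lie between -0.30 and 0.37.

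STRA6, the retinol uptake receptor, showed the largest change of the 10 genes. STRA6 (ENSG00000137868) had 23 counts in the control, 206 under hairpin 2 and 94 under hairpin 3, or 0.37, 3.43 and 1.51 CPM. Both hairpin libraries lay well above the control, 9.25-fold under hairpin 2 (counting interval 6 to 14.9) and 4.07-fold under hairpin 3 (2.56 to 6.73). In the fit STRA6 rose by 2.72 ± 0.524 on the log2 scale, 6.61-fold (95% interval of the log2 value 1.61 to 3.84; edgeR adjusted p = 0.00317, and 0.000122 to 0.47 among the alternatives). The call was lost with robust empirical Bayes (adjusted p = 0.124) and without a filter on low counts (adjusted p = 0.47), where no gene passed. The hairpins differed from each other 2.27-fold (1.77 to 2.93), beyond counting error. Even at its highest STRA6 was a rare transcript, at 1.25 TPM against 42.9 TPM for RXRA in the control. CCDC33, which overlaps 7.02% of its exon length on the other strand, had 6 counts or fewer in each library.

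DHRS9, a dehydrogenase that oxidises retinol and related alcohols, rose as well. DHRS9 (ENSG00000073737) had 579 counts in the control, 1572 under hairpin 2 and 945 under hairpin 3, or 9.32, 26.1 and 15.2 CPM. It stood 2.8-fold (2.55 to 3.09) and 1.63-fold (1.46 to 1.81) above the control, and hairpin 2 was again the higher of the pair, by 1.72-fold (1.59 to 1.87). The log2 fold change of DHRS9 was 1.15 ± 0.243, 2.21-fold (edgeR adjusted p = 0.00636, and 0.000612 to 0.479 among the alternatives). The call was lost with DESeq2 (adjusted p = 0.474), with robust empirical Bayes (0.308), with a floor of 1 on mean CPM (0.068) and without a filter (0.479). DHRS9 was the only gene of retinoid metabolism among the 10 at more than 4 CPM.

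DHRS3, which reduces retinal back to retinol and so opposes the formation of retinoic acid, lay below the control in both hairpin libraries. It had 55 counts in the control, 19 under hairpin 2 and 30 under hairpin 3, or 0.886, 0.316 and 0.481 CPM. These were 35.7% (ratio interval 0.2 to 0.611) and 54.3% (0.336 to 0.863) of the control, both beyond counting error. The log2 fold change of DHRS3 was -1.14 ± 0.421 and did not pass in edgeR (adjusted p = 0.117, and 0.0861 to 0.729 among the alternatives). CYP26A1, the retinoic acid hydroxylase that retinoic acid induces through the repeat shown above, had 3, 4 and 3 counts in the control and under hairpins 2 and 3 and was too low to be tested. Its ratio to the control was 1.38 under hairpin 2 (0.233 to 9.4) and 0.996 under hairpin 3 (0.133 to 7.44), so a several-fold change was not detectable.

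**Figure D3:**
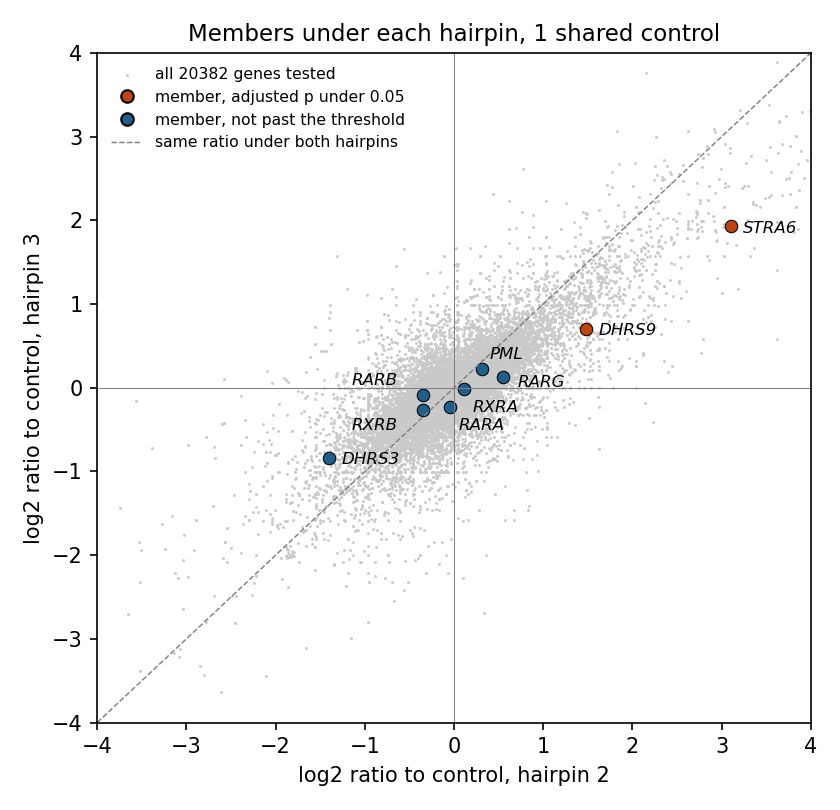
Log2 ratio to the control under hairpin 2 (horizontal) and hairpin 3 (vertical) of all genes tested (grey; 26 genes beyond 4 on an axis are not drawn) and of the 9 tested genes described here. The shared control by itself places genes along the diagonal. STRA6 and DHRS9 lie below the dashed line of equal ratios on the upper right, with the larger rise under hairpin 2, while the receptors and PML lie near the centre.

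The larger rise under hairpin 2 was not a feature of STRA6 and DHRS9 alone. Of the 1119 genes called higher, 932 (83.3%) lay further from the control under hairpin 2 than under hairpin 3, and of the 655 called lower 422 (64.4%) did, although ARID1B stood at 43.3% and 42.2% of the control. The 3 coding genes with a mean of at least 5 CPM whose pair of ratios lay nearest to STRA6 (Euclidean distance over 2 log2 ratios from 3 libraries that share 1 control, among 10077 genes) were S100A9, KRT81 and ITGAX, at distances of 0.378, 0.404 and 0.406. S100A9, a calcium-binding protein of maturing myeloid cells, had 108, 704 and 404 counts. KRT81 had 161, 1031 and 669, and ITGAX, the CD11c integrin, 308, 1979 and 1314. Under hairpin 2 the log2 ratios of these 3 genes, 2.71 to 2.73, were below the 3.10 of STRA6. STRA6 itself lay below 5 CPM in each library. Nearest to DHRS9 were PLXNC1 (distance 0.0974), a semaphorin receptor, MGAT3 (0.0996), a glycosyltransferase, and CD48 (0.12), a leukocyte surface protein.

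The summed levels of eosinophil and mast cell, monocyte and lymphocyte markers followed the same order of libraries as STRA6 and DHRS9. So did the sum of the promyelocyte markers (11355, 14409 and 12394 CPM), although among them PRTN3 was called higher and CTSG lower. The stem cell markers, too low to be tested, had this order as well (0.0322, 0.0831 and 0.0481 CPM). The erythroid markers did not (0.242, 0.499 and 0.176 CPM in the control and under hairpins 2 and 3, 0 called of 1 tested). Nor did the markers of epithelial cells, fibroblasts and packaging cells (23.1, 18.7 and 23.1 CPM, 0 called of 2 tested). Those of retinoid-storing cells of liver and eye did not either (0.29, 0.233 and 0.176 CPM, 0 called of 1 tested). The marker lists were chosen with earlier results of these data known, so their counts of calls are not independent evidence. Of 5 eosinophil and mast cell markers 4 were tested and 4 called higher (EPX, PRG2, CLC and CPA3), against 5.49% of all genes tested. The summed level of the 5 was 77.6 CPM in the control, 1793 under hairpin 2 and 949 under hairpin 3, with FCER1A at 0 counts. Of 5 tested monocyte and macrophage markers 2 were called higher (FCN1 and CD68), with sums of 31.7, 71.3 and 50.6 CPM and with CD14 at 16 counts or fewer. Of 5 lymphocyte markers 3 were tested and 2 called higher (CD3D and NKG7), with sums of 30.2, 55.8 and 42.9 CPM and with MS4A1 at 0 counts. Their part in the rise of STRA6 and DHRS9 was not tested, and in bulk RNA a change in the share of cells of a type and in RNA per cell cannot be told apart. The stem cell markers CD34 and PROM1 had 0 counts. Of 5 markers of retinoid-storing cells of liver and eye, LRAT and TTR had 0 counts and RPE65 and RLBP1 at most 1.

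In order of level per exon length, averaged over the libraries, RXRA (43.5 TPM) and RXRB (42.6) came first and exchanged places between libraries. PML (22.1) and RARA (18.3) followed. DHRS9 (12.6) was next, and the remaining genes lay far lower, with STRA6 at 0.642, DHRS3 at 0.516, RARG at 0.305, RARB at 0.163 and CYP26A1 at 0.051 TPM. In the control alone DHRS3 (0.82 TPM) stood above RARG (0.256), RARB (0.184) and STRA6 (0.135), while STRA6 stood above all 3 under both hairpins. With the longest transcript as the length, STRA6 was above RARB in the control (0.282 against 0.172 TPM). Among 16652 coding genes with at least 1 count, RXRA was at percentile 83, RARA at 65.4 and CYP26A1 at 17.3.

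The lists of other retinoid transport and metabolism genes held 20 tested genes, and 0 were called. With 8.7% of all genes called, so small a number of genes does not set these lists apart. Among 4 tested retinoid binding proteins, 0 rose and 0 fell (median log2 fold change 0.048; 1 at an unadjusted p under 0.05 in edgeR, and 0 called by DESeq2). FABP5, which carries retinoic acid and fatty acids, had 544 counts in the control and 682 and 709 under hairpins 2 and 3 (0.37 ± 0.172), and RBP4, the plasma carrier that STRA6 binds, 23, 10 and 16 (-0.80 ± 0.547). CRABP2, which delivers retinoic acid to the nucleus, had 65, 92 and 60 counts (0.25 ± 0.368), while CRABP1 had 0. Among 14 tested enzymes of retinol and retinal, 0 rose and 0 fell (median 0.054; 3 at an unadjusted p under 0.05 in edgeR, and 0 called with DESeq2). The retinal reductase RDH11 had the most counts, 2579, 3399 and 3204 (0.38 ± 0.135, edgeR adjusted p = 0.105). Per exon length the retinol esterifying enzyme DGAT1 stood above RDH11 in the control (24.5 against 21.1 TPM) and under hairpin 3 (27.3 against 25.6). With the longest transcript as the length, DGAT1 was the lower one in both (21.3 against 22.6 and 23.8 against 27.4), so this order rests on the length used. The log2 fold change of DGAT1 was 0.16 ± 0.134 and that of the retinol saturase RETSAT -0.026 ± 0.149, while LRAT, which stores retinol as esters, had 0 counts.

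The step to retinoic acid itself rested on low counts. Of the retinal dehydrogenases, chosen for mention after their values were seen, ALDH1A2 had 39, 98 and 76 counts (1.18 ± 0.384, edgeR adjusted p = 0.0723), ALDH1A3 had 116, 73 and 82 (-0.56 ± 0.301) and ALDH1A1 4 or fewer. ALDH1A2 passed only with the legacy fit of edgeR among the 8 alternatives. On the side of breakdown, 0 of 2 tested genes passed in edgeR (1 had an unadjusted p under 0.05, and DESeq2 called 0). CYP26B1, the second CYP26 enzyme, had 96 counts in the control, 138 under hairpin 2 and 245 under hairpin 3, a log2 fold change of 1.01 ± 0.333 (edgeR adjusted p = 0.0756, and 0.039 to 0.498 among the alternatives). Unlike STRA6 and DHRS9, CYP26B1 was higher under hairpin 3 than under hairpin 2.

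**Figure D4:**
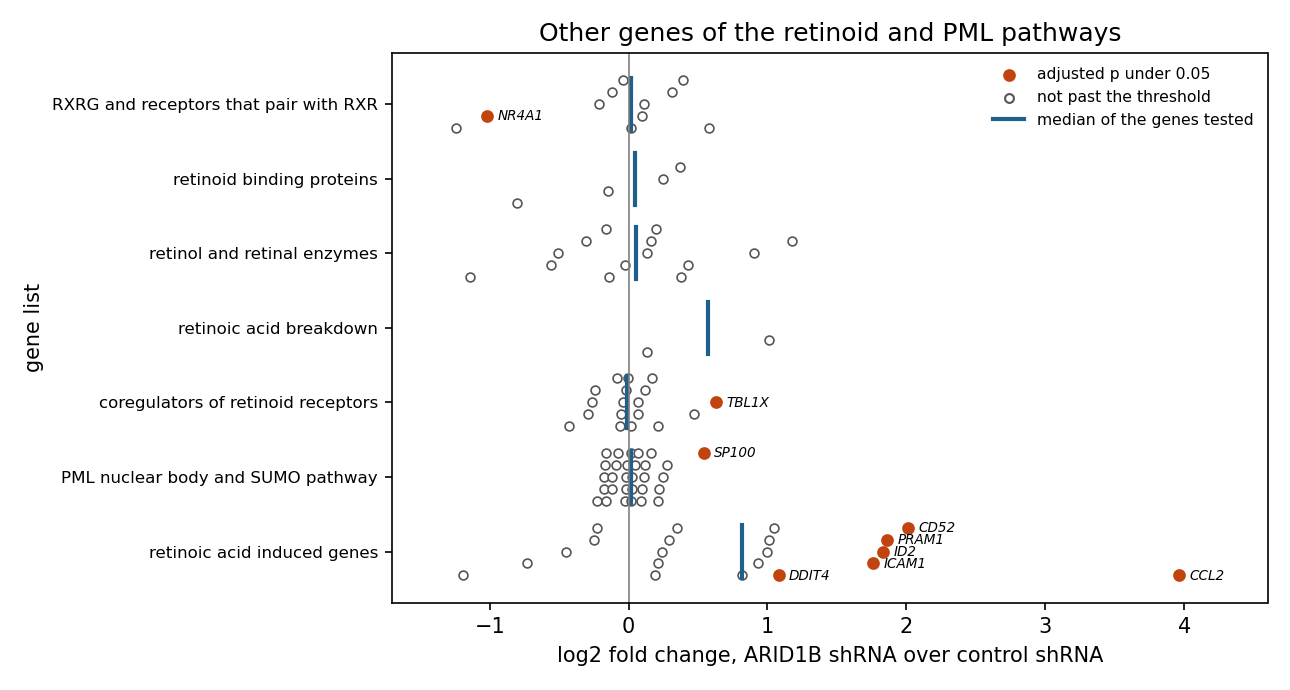
Log2 fold change (ARID1B shRNA over control shRNA) of each tested gene in 7 lists of related genes, with genes past an adjusted p of 0.05 filled and named and the list median as a bar. Most genes of the receptor, coregulator and PML body lists lie near 0, and the 6 named genes of the retinoic acid induced list lie between 1.08 and 3.96.

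Partner receptors and coregulators gave 1 call each, few enough that neither list can be set apart from the 8.7% called over all genes. Of 11 tested receptors in the list of RXR partners, NR4A1 fell and none rose (median 0.017). NR4A1, an early-response orphan receptor, had 606 counts in the control and 260 and 328 under hairpins 2 and 3 (-1.02 ± 0.196, edgeR adjusted p = 0.0031). The vitamin D receptor VDR had 0.099 ± 0.131, the thyroid hormone receptor THRA -0.12 ± 0.127 and the oxysterol receptor NR1H2 -0.041 ± 0.131. Of 18 tested coregulators TBL1X rose and none fell (median -0.011). TBL1X, a core subunit of nuclear receptor corepressor complexes, had 2314, 3775 and 3284 counts (0.63 ± 0.145, edgeR adjusted p = 0.0109). GPS2, of the same complexes, had 0.17 ± 0.131 although 44.7% of its exon bases also belong to a gene on the same strand, and SIN3A had -0.055 ± 0.138.

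Of 30 tested genes of PML nuclear bodies and the SUMO pathway, SP100 rose and none fell (median 0.018), against 5.49% higher and 3.21% lower over all genes. SP100, a resident protein of PML bodies, had 1797 counts in the control and 2812 and 2320 under hairpins 2 and 3, a log2 fold change of 0.54 ± 0.155 (edgeR adjusted p = 0.0407). That call lay close to the threshold and was lost with upper quartile factors, DESeq2, robust empirical Bayes, a floor of 1 on mean CPM and no filter (adjusted p = 0.0532, 0.0941, 0.0584, 0.104 and 0.472). SAE1 and UBA2, which together form the SUMO activating enzyme, had 0.22 ± 0.154 and 0.16 ± 0.142, and the kinase subunit CSNK2A1 -0.02 ± 0.135.

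Of 21 tested genes known to respond to retinoic acid, 6 rose and 0 fell (median 0.82), where 5.49% and 3.21% of all genes did. The list was drawn up with earlier results on CCL2, CD52, PRAM1, ICAM1 and ID2 in view, so neither its count nor its direction is independent evidence. Of the 6 genes called, only DDIT4 lies outside those 5. The list left out RARB and CYP26A1, the retinoic acid targets described above. RARB did not pass the threshold and CYP26A1 was too low to be tested. ID2, an inhibitor of E proteins, rose from 126 counts to 512 and 371 (1.83 ± 0.267, edgeR adjusted p = 0.000304), and PRAM1, an adaptor of myeloid cells, from 2258 to 9574 and 6545 (1.86 ± 0.201). CD52 rose by 2.01 ± 0.33 and the chemokine CCL2 by 3.96 ± 0.436. The number called ran from 4 (robust empirical Bayes, without CCL2 and ICAM1) to 8 (library size alone, and the legacy fit) where low counts were filtered. It was 5, without ICAM1, with DESeq2 and with a floor of 1 on mean CPM, and 0 without a filter. The remaining 2 genes called were ICAM1 and the stress-response gene DDIT4 (4174, 8642 and 8758 counts), both named after their values were seen. DDIT4 shares 41.2% of its exon length with an antisense gene. Of other members of that list, TGM2 had 2 counts or fewer, CD38 a log2 fold change of -0.23 ± 0.197 and CEBPE, a factor of late granulocyte development, 0.35 ± 0.13 (edgeR adjusted p = 0.569 and 0.121).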

How the data were processed

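The authors deposited whole-number read counts per Ensembl gene for 3 NB4 libraries, not normalized, per the file header. STAR, featureCounts, Cufflinks and build hg19 are named per the submitters' processing notes, with no versions, annotation or strand setting given in the sources used here. Names and exon lengths came from GENCODE 29 (GRCh38), which named 52338 IDs and gave no coordinates for counts. Where IDs shared a symbol, the one with most counts was kept. TPM used the union of a gene's exons.

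Counts were fitted in R 4.3.3 with edgeR 4.0.16: filterByExpr (minimum count 10), TMM factors, glmQLFit with legacy = FALSE and glmQLFTest, two-sided. Standard errors are the log2 fold change over the root of F, and intervals use the t distribution. Alternatives were other factors, other filters, DESeq2 1.42.0, robust and legacy fits. Counting intervals (95%) and floors of 3 counts cover counting error only, since reads carry no molecular identifiers. The fit was tested on simulated data with 200 changed genes.

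Named genes were the 10 members, ARID1B, up to 4 genes per list (called first, then most abundant) and the 3 nearest patterns of each called member; some genes that this rule names are left out here. Members and lists were chosen with earlier results of these data known. The lists also held UBE1L and RBP3, which matched no row.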

Additional observations from a re-analysis of the deposited data

How the results depend on the processing

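No paired analysis was possible because there was only 1 control library for both hairpins. Over all genes, the numbers called higher and lower were 0 and 0 without a filter on low counts (3218 of 32925 genes at an unadjusted p under 0.05 in edgeR), and 622 and 338 where mean CPM had to reach 1. DESeq2, run on the filtered genes alone, gave 775 and 277, against 1119 and 655. Genes called higher were 63.1% of calls, 53.8% by upper quartile factors and 73.7% in DESeq2. The count of 2 members higher was 0 without a filter and with robust empirical Bayes, and 1 (STRA6) in DESeq2 or where mean CPM had to reach 1. No member was called lower in any setting.

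Without a filter 0 genes of any list passed. NR4A2 joined NR4A1 among RXR partners lower (2) with library size alone and with the legacy fit. With the legacy fit 1 enzyme of retinol and retinal (ALDH1A2) was higher, and with that fit and library size alone 1 breakdown gene (CYP26B1). With upper quartile factors and library size alone 1 coregulator was lower. With upper quartile factors, library size alone and the legacy fit 1 retinoic acid induced gene (NDRG1) was lower. SP100, the 1 riser of the PML body list, gave 0 with upper quartile factors, DESeq2, a floor of 1 on mean CPM and robust empirical Bayes.

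Without hairpin 2 or hairpin 3, values with no test, the log2 change was 1.93 or 3.10 for STRA6 and 0.70 or 1.48 for DHRS9, so the fold for STRA6 depends on the hairpin. None of the named genes past the threshold whose values were recomputed changed direction under the alternatives. RXRA, CRABP2, NR1H2, RETSAT and SIN3A, none of them past it, changed sign without 1 of the hairpins (RXRA to -0.013 without hairpin 2). The cause of these changes was not tested. RARB, RARG and CYP26A1 are limited by depth.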
